A study of Mus musculus with 58 samples.

Results

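The libraries of this series were ordered by how much RNA of olfactory bulb genes they carried, and the 19 richest were set beside the 20 poorest of 58. The libraries were chosen by a bulb score, the mean of log2(value + 1) over 10 genes used as olfactory bulb markers: Tbx21, Eomes, Cdhr1, Doc2g, S100a5, Ms4a15, Shisa3, Scgn, Th and Sp8. The values are normalised read counts, that is read counts divided by 1 size factor per library. Libraries with a score of at least 8.5 are called rich, those with a score of 5 or less poor, and the 19 between both limits middle. As the 10 genes chose the libraries, every rich against poor value of a gene below is a description of the 2 sets without a test. The 19 middle libraries entered neither set and were used for tests of the slope of each gene on the same score.

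All 58 libraries were labelled prefrontal cortex and came from C57BL/6J mice at postnatal day 25. The mice were wild type (WT) or heterozygous (HT) for a knock-in allele of Tbl1xr1, whose product is a subunit of nuclear receptor corepressor complexes. They had taken fluoxetine, a serotonin reuptake inhibitor, lithium, a mood stabiliser, or vehicle with their mother's milk for 3 weeks, from day 3 to day 24. Genotype, treatment and sex gave 12 groups of 5 libraries, except WT lithium females and WT lithium males with 4 each. The labels name neither dam nor litter and do not say that each library is 1 animal, and p-values here therefore reflect library-to-library spread, which may be partly technical. They do not name the exact change in the knock-in allele. Markers of cortex were present in every library: Slc17a7, the vesicular glutamate transporter of cortical excitatory neurons, was at 36362 or more throughout, and the cortical transcription factor Neurod2 at 1140 or more.

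The olfactory bulb lies in front of the frontal cortex and receives the axons of the sensory neurons of the nose. Mitral and tufted cells, its glutamatergic projection neurons, take up that input in the glomeruli and send it on to the olfactory cortex. Periglomerular cells and granule cells, both GABAergic, inhibit them, and some periglomerular cells also make dopamine. New granule and periglomerular cells arrive throughout life as neuroblasts that migrate from the lateral ventricle along the rostral migratory stream. Prefrontal cortex is built of layered excitatory neurons and local interneurons and holds no mitral cells.

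Scores ran from 3.37 in HT vehicle male 4 to 10.41 in WT vehicle male 2. The lowest rich library was WT vehicle female 5 at 8.55 and the highest middle library HT lithium male 4 at 8.34. At the other limit, the highest poor library was HT lithium female 2 at 4.85 and the lowest middle library WT vehicle male 4 at 5.06. The limits therefore cut through a spread of values and not through a gap. Total reads were 28.4 ± 3.65 M (SD, n = 19) in the rich and 27.6 ± 3.03 M (SD, n = 20) in the poor libraries, a difference of 0.797 M that was within their spread (two-sided permutation test, p = 0.459).

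The score genes themselves give the size of the contrast. Eomes, a T-box transcription factor of mitral and tufted cells, lay between 436 and 1458 in the rich libraries, with a median of 767, and between 0 and 74.6 in the poor ones, with a median of 9.3. Cdhr1, a cadherin-related protein of the same cells, had a median of 4314 (range 2242 to 7854) against 169 (range 103 to 478). Th, tyrosine hydroxylase, the rate-limiting enzyme of dopamine synthesis, had a median of 1158 (range 634 to 2084) against 81.1 (range 47.9 to 134). Ms4a15 had a median of 638 in the rich libraries and was at 13.7 or less in every poor one. The smallest difference among the 10 was that of Sp8, a zinc finger factor of bulb interneurons, at 2.86 on the log2 scale, and the largest that of Ms4a15 at 8.19. These values chose the libraries.

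**Figure D1:**
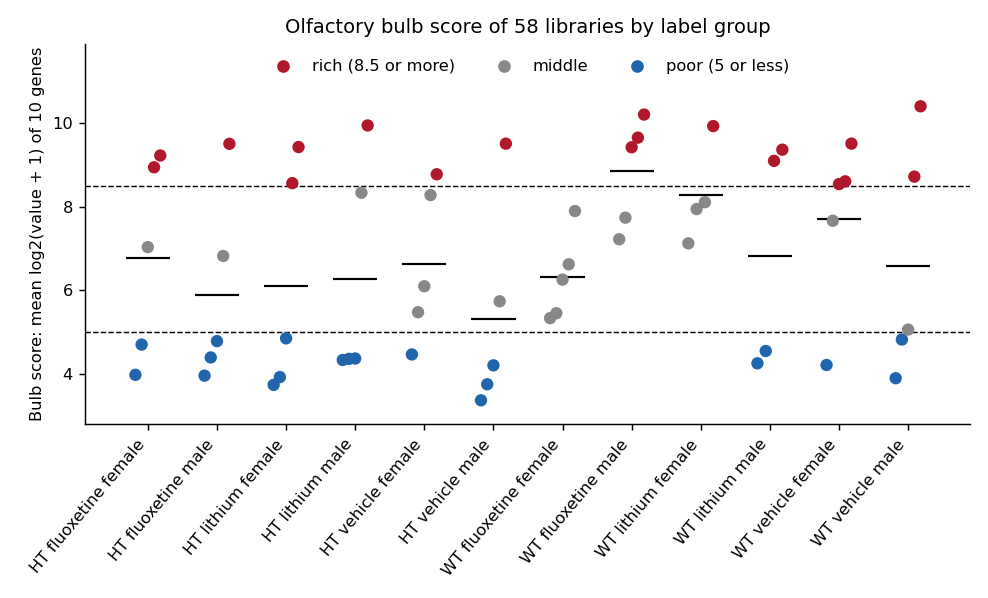
Bulb score of each library (vertical axis, mean log2(value + 1) of 10 genes) by label group (horizontal axis). Points are libraries, red for rich, grey for middle and blue for poor; horizontal bars are group means and dashed lines the limits of 8.5 and 5. In 9 of the 12 groups some libraries lie above the upper and some below the lower limit.

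Beyond the 10 score genes, 105 of 16596 genes were at least 2-fold higher in the rich libraries with no overlap between the ranges of the 2 sets, which is 0.633% of genes. The count depends on the limits and the libraries: it was 63 with limits of 8 and 5.5, 212 with limits of 9 and 4.5, 190 in males alone, 179 in WT alone and 166 within the label groups. No gene (0%) was at least 2-fold lower without overlap. At any size of difference, 179 genes (1.08%) were higher without overlap and 2 genes (0.0121%) were lower. The mean difference was above 0 in 46.8% of genes, and the median over all genes was -0.01 on the log2 scale. In bulk tissue, more cells of a type and more RNA per cell cannot be told apart, and this holds for every gene below. Differences between the sets are differences of mean log2(value + 1), and levels are normalised read counts.

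Genes of bulb projection neurons had the largest median difference of the 8 bulb, neuroblast and olfactory lists. All 7 members tested were higher on average in the rich libraries, with a median of 3.11, and 3 of them did not overlap between the sets, Nmb, Trh and Reln. Barhl2, 1 of the 7, reached the mean of 10 needed for testing through the rich libraries, so its rise is partly built in. Its medians were 29.1 in the rich, 5.7 in the middle and 1.1 in the poor libraries. Nmb encodes the neuropeptide neuromedin B (ENSMUSG00000025723, chromosome 7, 80902227 to 80905076 on GRCm38, minus strand). It lay between 114 and 524 in the rich libraries (median 258) and between 10.7 and 54.9 in the poor ones (median 21.8). Its mean log2 value was 7.95 ± 0.64 (SD, n = 19) against 4.49 ± 0.51 (SD, n = 20), a difference of 3.46. Trh, the precursor of thyrotropin-releasing hormone, ranged from 182 to 674 (median 353) against 19.2 to 66.5 (median 43.4). The lowest rich library thus stood above the highest poor library for both peptides.

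Other members of that list were as far apart on average but overlapped. Barhl2, a homeobox factor, differed by 3.48 at a low level, with medians of 29.1 and 1.1, and Lbhd2 by 3.63, with medians of 79.8 and 6.4. Ebf3, a factor of the Olf/Ebf family, differed by 1.40. Its highest poor library, HT lithium male 1, was at 126 and the next highest at 38.3, while its lowest rich library was at 32.8. Reln, the secreted protein reelin that mitral cells and some cortical neurons make, had medians of 3370 and 1984 with ranges that did not meet, a difference of 0.87. Slc17a6, the vesicular glutamate transporter 2, differed by 0.45 and overlapped. Lhx5 averaged under 10 over all libraries and was not tested, with a median of 15.4 in the rich and 0.0 in the poor libraries. Lhx1 and Uncx, also on that list, had no value in the data and were not analysed.

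Genes of dopaminergic and periglomerular cells split into those that differed and those that hardly did. Calb2 encodes calretinin, a calcium-binding protein of the largest class of periglomerular cells (ENSMUSG00000003657, chromosome 8, 110137502 to 110168210, minus strand). It had a median of 3837 (range 2313 to 6854) in the rich libraries and of 424 (range 301 to 781) in the poor ones. Its mean log2 value was 11.87 ± 0.45 (SD, n = 19) against 8.79 ± 0.39 (SD, n = 20), a difference of 3.08. Pax6 and Sall3, transcription factors that dopaminergic periglomerular cells need, differed by 1.55 and 1.30 and also did not overlap. Zic1, a zinc finger factor, differed by 1.42 with a small overlap, its lowest rich library being at 848 and its highest poor library at 876.

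Among the dopamine genes, the transporters were far apart and the enzymes other than Th were not. Slc6a3, the plasma membrane dopamine transporter, differed by 2.21 (medians 52.5 and 8.7), and Slc18a2, the vesicular monoamine transporter, by 2.33 (medians 56.3 and 9.3). Ddc, which turns L-DOPA into dopamine, differed by 0.04 (medians 141 and 152), and Gch1, which makes the cofactor of tyrosine hydroxylase, by 0.03 (medians 44.3 and 43.9). The ranges of these 4 genes overlapped.

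In the list of granule cell genes all 9 members were above 0, with a median difference of 0.96, and 5 did not overlap between the sets. Pbx3, a homeobox partner of Meis factors, had a median of 1735 (range 1025 to 2892) in the rich and of 299 (range 210 to 616) in the poor libraries. Tshz1, a zinc finger homeobox factor needed for granule cells to settle, had a median of 3196 (range 1969 to 5508) against 808 (range 628 to 1007). Gng4, a G protein gamma subunit, had a median of 5986 (range 3696 to 10549) against 1558 (range 1145 to 2018). Meis2 and Synpr, which encodes the synaptic vesicle protein synaptoporin, differed by 0.96 and 1.18 from a higher base, with medians of 4106 and 3144 in the poor libraries. Etv1, Stxbp6 and Tpbg differed by 0.25, 0.31 and 0.35 and overlapped.

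All 11 genes of GABA synthesis and of the Dlx programme were above 0, with a median of 1.10, and 7 did not overlap. Dlx1 is a homeobox factor of forebrain GABAergic neurons (ENSMUSG00000041911, chromosome 2, 71528113 to 71533981, plus strand). Its median was 3261 (range 1949 to 5618) in the rich and 766 (range 575 to 1004) in the poor libraries. Sp9, a zinc finger factor related to Sp8, differed by 2.25, Dlx2 by 1.88, Dlx5 by 1.64 and the non-coding RNA Dlx6os1 by 1.39, all without overlap. Dlx1 and Dlx2 lie side by side, as do Dlx5, Dlx6 and Dlx6os1, so these genes are not independent of each other. The transmitter genes, which cortical interneurons share, moved less: Gad1, a GABA-synthesising enzyme, differed by 0.80 without overlap, with a median of 14180 (range 10901 to 21132) against 8263 (range 7416 to 9556). Gad2, another GABA-synthesising enzyme, and the vesicular transporter Slc32a1 differed by 0.38 and 0.44 and overlapped.

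Neuroblast genes were higher in the rich libraries while genes of dividing cells were not. All 8 neuroblast genes were above 0 with a median of 0.76, and 5 did not overlap. Dcx, the microtubule protein doublecortin of migrating neurons (ENSMUSG00000031285, X chromosome, 143855842 to 143933311, minus strand), had a median of 6276 (range 4292 to 9260) against 2082 (range 1522 to 2958). Prokr2, a receptor for prokineticin, which attracts neuroblasts to the bulb, had a median of 545 (range 351 to 740) against 123 (range 72.4 to 258). Igfbpl1 had a median of 326 (range 177 to 573) against 71.3, where 1 poor library, HT lithium female 5, was listed at 0 and the highest poor library was at 160. Of 10 proliferation genes, 9 were below 0, with a median of -0.32 and no gene without overlap. Mki67, the Ki-67 antigen, had medians of 79.6 and 107, and Top2a, topoisomerase II alpha, of 73.3 and 88.3. The lateral ventricle, where neuroblasts divide, was not sampled separately.

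The promoters of the genes at least 2-fold higher in the rich libraries were read for 3 motifs. These genes moved together, and several of them, such as Dlx1 and Pbx3, encode homeodomain factors. The T-box factors Eomes and Tbx21 are score genes and Ebf3 overlapped between the sets, so none of them is among the 105. RefSeq windows of 250 bases before the start on GRCm38.p6 were found for 66 of the 105 genes, 90 windows in all. For 60 of the 90, the bases after the start matched the start of a GENCODE M21 transcript of the gene. The homeodomain core TAATTA, which is its own reverse complement, was in 8 of 90 windows (8.89%), from 6 genes, and in 409 of the 15469 windows of all genes tested (2.64%). The palindromic Ebf motif, TCCC and GGGA with any 2 bases between them, was in 0 of 90 windows against 0.97% of all, and the T-box site AGGTGTGA, on either strand, was in 1 of 90 (1.11%), that of Nppa, against 0.71% of all. Windows of 1 gene can overlap, so that the same core of Dcx is counted in more than 1 window. A match describes the letters and not binding. Below are windows of Dcx (X chromosome, 143933125 to 143933374, minus strand) and of Dlx6os1 (chromosome 6, 6869534 to 6869783, minus strand), as examples of a neuroblast gene and a Dlx gene that hold the core, with the core in capitals. The first core base lies 134 bases before the start in Dcx and 130 in Dlx6os1, whose window holds the core 2 times.
Dcx: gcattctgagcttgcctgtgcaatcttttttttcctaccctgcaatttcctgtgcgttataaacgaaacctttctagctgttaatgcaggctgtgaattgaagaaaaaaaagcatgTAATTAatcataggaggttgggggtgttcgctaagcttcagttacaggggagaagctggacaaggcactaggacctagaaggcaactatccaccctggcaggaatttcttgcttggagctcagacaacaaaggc
Dlx6os1: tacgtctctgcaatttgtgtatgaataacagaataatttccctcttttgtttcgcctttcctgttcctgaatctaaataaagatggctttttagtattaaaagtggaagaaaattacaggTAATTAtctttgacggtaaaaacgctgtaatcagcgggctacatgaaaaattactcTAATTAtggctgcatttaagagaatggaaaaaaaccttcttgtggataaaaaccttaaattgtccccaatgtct

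Olfactory sensory neurons have their cell bodies in the nose and only their axons in the bulb, and their genes did not move as a list. The median over 11 members was 0.06, and 6 were above 0. Omp, the olfactory marker protein of mature sensory neurons (ENSMUSG00000074006, chromosome 7, 98143359 to 98145502, minus strand), ranged from 62.6 to 614 in the rich and from 1.2 to 43.8 in the poor libraries (median 12.6), a difference of 3.89 without overlap. Stoml3, a stomatin-like protein of sensory neuron cilia, differed by 4.56, with medians of 68.2 and 1.0, and overlapped through HT lithium male 1 at 26.6. Pcp4l1 differed by 1.44 (medians 5546 and 1936). The transduction genes Gng13, Adcy3, Gnal and Cnga4, most of which brain tissue also expresses, differed by -0.04, -0.13, -0.14 and -0.18.

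Ensheathing glia wrap those axons in the outer layer of the bulb. Of their 7 genes, Fabp7, the brain lipid-binding protein (ENSMUSG00000019874, chromosome 10, 57784881 to 57788450, plus strand), was the only one without overlap. Its median was 3087 (range 1490 to 5707) against 746 (range 380 to 1033). Apod, Ngfr and Frzb differed by 0.83, 0.86 and 0.64 and overlapped. S100b, Sox10 and Npy differed by -0.07, -0.09 and -0.22. Fabp7 is also made by astrocytes and radial glia, and the 6 astrocyte genes had a median of -0.05. Which cells carried the difference in Fabp7 was not tested.

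**Figure D2:**
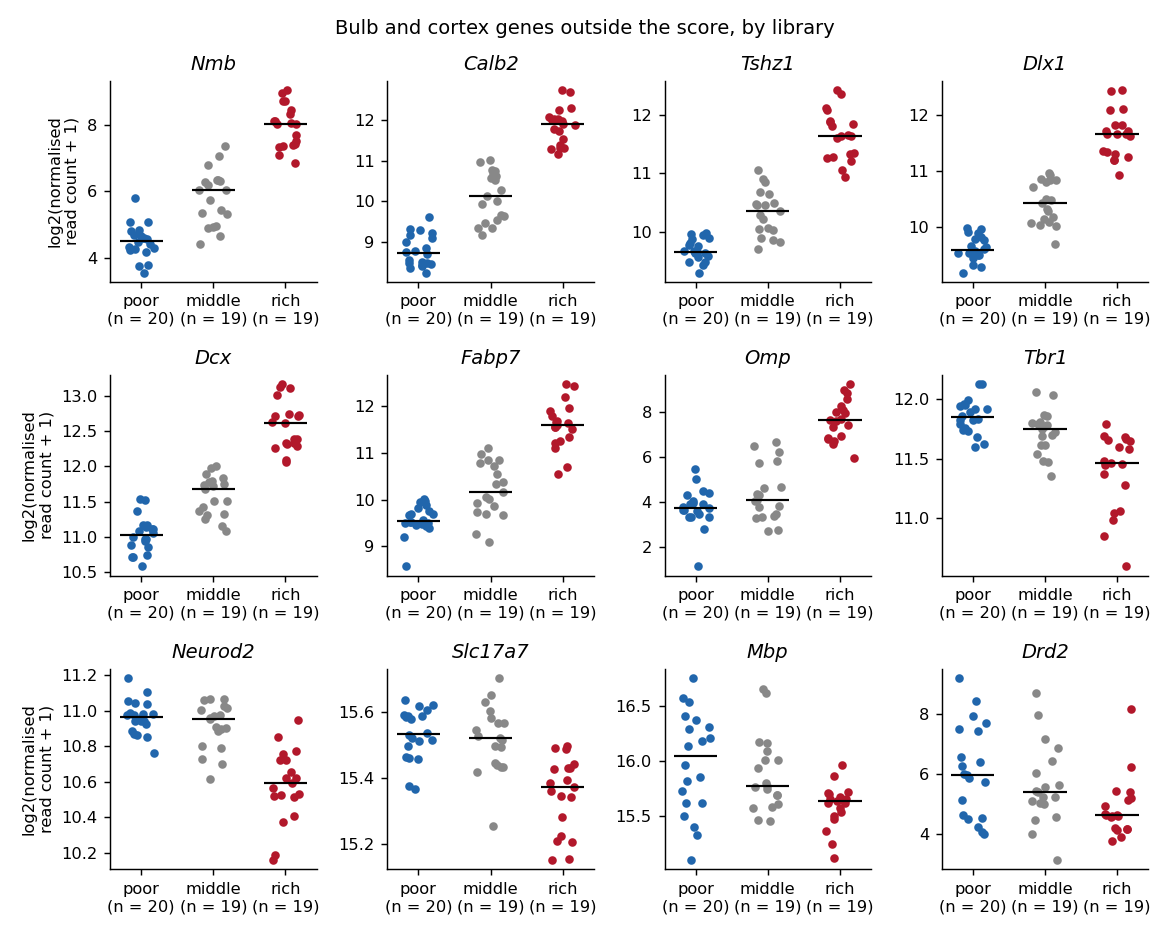
log2(normalised read count + 1) of 12 genes outside the score (vertical axes) in the 20 poor, 19 middle and 19 rich libraries. Points are libraries and bars are medians. Nmb, Calb2, Tshz1, Dlx1, Dcx, Fabp7 and Omp do not overlap between poor and rich libraries, while Tbr1, Neurod2, Slc17a7, Mbp and Drd2 overlap and are lower on average in the rich ones.

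Outside the lists, 12 genes were named by size among those that did not overlap and averaged at least 50. Dnah11, an axonemal dynein heavy chain, differed by 4.49 (medians 237 and 9.6), the metalloprotease Adamts19 by 3.96 (273 and 19.1), Frmd7, a FERM domain protein, by 3.84 (627 and 43.6) and the phosphatase Ppm1j by 3.59 (150 and 13.6). Vipr2, a receptor for vasoactive intestinal peptide, followed at 3.40 (318 and 28.4). Its range was 141 to 590 in the rich and 13.6 to 50.4 in the poor libraries. The other 7 were Rab37, Ush1g, Sp7, Lgr5, Shisa8, Cpa6 and Fam196b, with differences between 2.42 and 3.01. Lgr5, a receptor for R-spondins that potentiate Wnt signalling, had a median of 835 (range 456 to 1343) against 115 (range 81.4 to 189). Sp7, known as the osteoblast factor osterix, had a median of 294 (range 168 to 574) against 42.7 (range 14.7 to 54.6). In the other direction Tpd52 was lower without overlap, at -0.24, with a median of 1850 against 2163.

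Genes of cortical excitatory neurons were lower in the rich libraries, each by a small amount. All 11 members were below 0, with a median of -0.29 and a range from -0.47 to -0.13, and every one overlapped between the sets. Tbr1 is a T-box factor of deep-layer neurons. Its median was 2813 (range 1540 to 3538) against 3681 (range 3094 to 4479). The mean log2 value of Tbr1 was 11.39 ± 0.33 (SD, n = 19) against 11.85 ± 0.15 (SD, n = 20). Neurod2, a basic helix-loop-helix factor, had a median of 1542 (range 1140 to 1976) against 2000 (range 1736 to 2327). Slc17a7 differed by -0.18, with a median of 42393 (range 36362 to 46244) against 47392 (range 42284 to 50907).

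Layer and interneuron lists were mixed. Among 14 deep-layer genes 7 were above and 7 below 0, from Fezf2, a factor of corticofugal neurons, at -0.50 to Nxph4, which was 2.83-fold higher. Syt6, a synaptotagmin listed for layer 6, differed by 1.40, with medians of 2263 and 807, and its lowest rich library, at 1251, lay just under its highest poor library, at 1265. Mdga1, a membrane protein listed for the upper layers, was 2.41-fold higher in the rich libraries without overlap, with medians of 1954 and 790, while the other 7 upper-layer genes lay between -0.34 and 0.25. Among 11 interneuron genes 8 were below 0, with a median of -0.17. Of the genes of interneurons from the medial ganglionic eminence, Pvalb, Sst and Lhx6 differed by -0.59, -0.54 and -0.51, Sox6 by -0.17 and Nxph1 by 0.16. Of those from the caudal ganglionic eminence, Adarb2 differed by 0.86 without overlap (medians 1108 and 654) and Vip by -0.18. Neither class moved as a whole.

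Lists of neighbouring tissues and other cell types had medians between -0.39 and 0.25. Of 11 striatal genes 9 were below 0, with a median of -0.36. The dopamine receptor genes Drd2 and Drd1 differed by -1.24 and -0.86, and Drd2 ranged from 12.7 to 287 in the rich and from 15.0 to 597 in the poor libraries. All 8 oligodendrocyte genes were below 0 with a median of -0.39. Mbp, myelin basic protein, ranged from 35549 to 64005 in the rich and from 35068 to 110664 in the poor libraries, so the poor libraries covered the range of the rich ones. All 11 leptomeningeal genes were above 0 with a median of 0.25, and Col1a1, a fibrillar collagen, reached 2112 in 1 rich library, HT fluoxetine male 2. All 6 microglial genes were below 0 with a median of -0.15, and the medians of 6 endothelial and 12 immediate early genes were both -0.12. Whether striatal, myelin or meningeal content has a part in any difference above was not tested.

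Choroid plexus transcripts stood out in 2 libraries that are in different sets. Ttr, transthyretin, which the choroid plexus secretes, was at 22675 in the poor library HT lithium male 1 and at 29769 in the middle library WT vehicle female 4, against at most 59.3 in any rich library. The list median was 0.03. Aqp1, a water channel listed for the choroid plexus, nonetheless differed by 2.27, with a median of 141 (range 68.5 to 264) in the rich and of 25.0 (range 11.3 to 209) in the poor libraries. The count of 105 genes lay between 103 and 116 when each of the 39 libraries was left out in turn, HT lithium male 1 included.

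**Figure D3:**
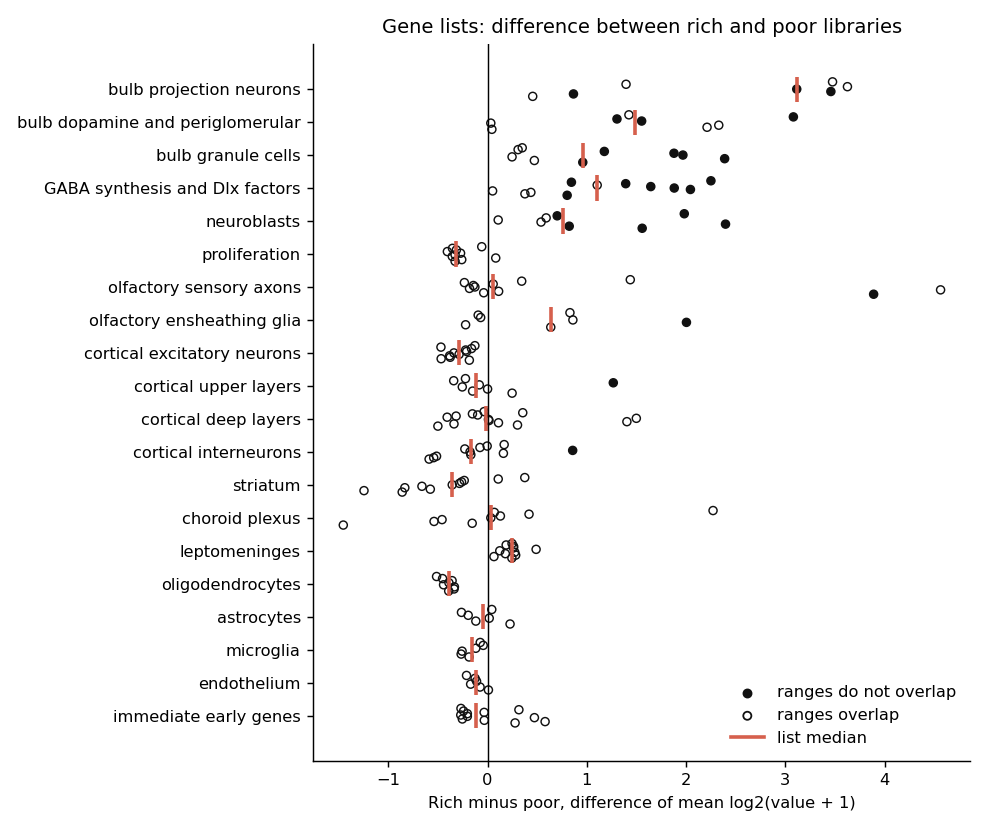
Difference of mean log2(value + 1), rich minus poor (horizontal axis), for each tested gene of 20 lists (rows). Filled points are genes whose ranges do not overlap between the sets, open points overlap, and red bars are list medians. The first 5 lists, of bulb neurons, Dlx factors and neuroblasts, lie wholly above 0, and the cortical excitatory and oligodendrocyte lists wholly below.

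The 19 middle libraries gave the same kind of measure in samples that neither set used. In them each gene was fitted on the score with terms for genotype, treatment and sex (limma, 13 residual degrees of freedom), and a gene is said to have risen or fallen where the Benjamini-Hochberg adjusted p over all genes was under 0.05. With the score, 75 genes (0.452%) rose and 2 (0.0121%) fell, 77 (0.464%) in all, and 413 fell at an unadjusted p under 0.05. Of the 105 genes that were at least 2-fold higher in the rich libraries, 50 rose, which is 47.6% of the 105 and 66.7% of the 75. Slopes were above 0 for all 105, which were chosen by the same score, while 8228 of all 16596 genes had a slope below 0. With the 12 group means as terms, 15 genes rose and 0 fell. HT lithium females and WT lithium males held 0 middle libraries and several other groups 1, so these terms left fewer residual degrees of freedom. The fit with genotype, treatment and sex rests on few libraries. Without HT vehicle female 3, 33 genes rose, and 40 without WT vehicle female 4, the library rich in choroid plexus transcripts.

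Among the 71 tested genes of the 8 bulb, neuroblast and olfactory lists, 19 rose in the middle libraries and 0 fell (limma). At an unadjusted p under 0.05, 32 (45.1%) had a slope above 0 and 1 a slope below 0, against 4.3% of all genes above 0, and edgeR called 21 rising. With the 12 group means as terms in place of genotype, treatment and sex, 3 of the 71 rose. Not all of the 12 groups held a middle library. With genotype, treatment and sex as terms, the count was 9 without WT vehicle female 4 and 10 without HT vehicle female 3. Calb2 had the smallest p of them, with a slope of 0.53 ± 0.04 log2 units per unit of score (SE; limma adjusted p = 2.13e-07). Its level lay between 571 and 2079 in these libraries, above the median of the poor and below the lowest of the rich ones. Nmb rose by 0.75 ± 0.08 (adjusted p = 4.28e-05), Tshz1 by 0.31 ± 0.04 (adjusted p = 0.000145) and Trh by 0.65 ± 0.09 (adjusted p = 0.000834). In all, 4 of 7 projection neuron genes, 5 of 8 dopamine and periglomerular genes, 3 of 9 granule cell genes and 3 of 11 GABA and Dlx genes rose. Of the sensory axon genes Omp and Stoml3 rose, of the neuroblast genes Dcx, and of the ensheathing glia genes Fabp7. Of the 10 proliferation genes 0 passed, and 1 fell at an unadjusted p under 0.05.

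Other genes that differed widely between rich and poor libraries had slopes whose test was not passed in the middle ones. Igfbpl1 had a slope of 0.11 ± 0.08 (limma adjusted p = 0.848), and Prokr2 of 0.04 ± 0.08 (adjusted p = 0.946), against 2.40 and 1.98 between the sets. Dlx2 had a slope of 0.18 ± 0.06 (adjusted p = 0.365). Of the cortical genes, Neurod2 fell by 0.11 ± 0.02 (adjusted p = 0.0108) and Syt6 rose by 0.24 ± 0.05 (adjusted p = 0.0145). Slopes were below 0 for 10 of the 11 excitatory genes, of which Neurod2 alone passed. Of the choroid plexus genes Aqp1 rose, by 0.85 ± 0.15 (adjusted p = 0.00888), and the list's median slope of 0.50 was the highest outside the projection neurons. WT vehicle female 4, the middle library with the highest Ttr, has a score of 7.67. At an unadjusted p under 0.05, 6 of 9 choroid plexus genes and 6 of 11 leptomeningeal genes had a slope above 0. All 11 leptomeningeal slopes were above 0, with a median of 0.12, and 0 of them passed the test. Whether choroid plexus or meningeal content has a part in the rises of bulb genes was not tested.

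Outside the lists the 8 rises with the smallest p were Lgr6, Sp7, Vipr2, Frmd7, Adamts19, Map3k1, Cpa6 and Isoc1. Lgr6, a relative of Lgr5, rose by 0.60 ± 0.06 (limma adjusted p = 3.95e-06) and Sp7 by 0.75 ± 0.08 (adjusted p = 1.07e-05). All 8 were also at least 2-fold higher without overlap in the rich libraries, where Lgr6 had a median of 736 against 136 and Map3k1, a kinase, of 835 against 239. The one gene outside the lists that fell was Nptx1, neuronal pentraxin 1, a synaptic protein, by 0.16 ± 0.03 (adjusted p = 0.0204). Nptx1 had medians of 6654 in the rich and 8622 in the poor libraries and overlapped.

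**Figure D4:**
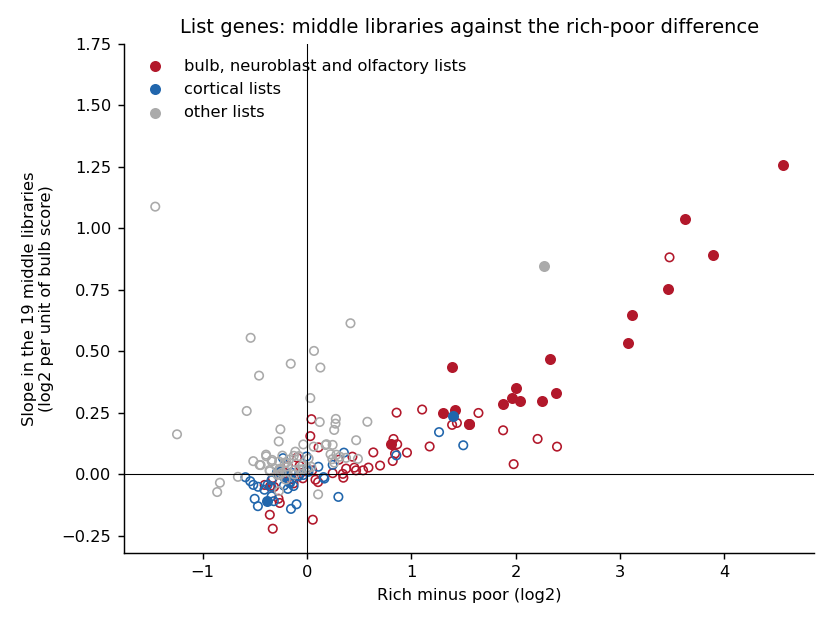
Slope on the bulb score in the 19 middle libraries (vertical axis, log2 per unit of score) against the rich minus poor difference (horizontal axis, log2) for the genes of the lists. Red points are the 8 bulb, neuroblast and olfactory lists, blue the cortical lists and grey the others; filled points passed the test in the middle libraries. Calb2, Nmb, Trh, Omp and Stoml3 lie at the upper right, and Neurod2 is the filled blue point below 0.

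Rich and poor libraries were spread over the label groups. HT libraries numbered 8 rich and 15 poor of 30, and WT libraries 11 rich and 5 poor of 28. Fluoxetine had 6 rich and 5 poor of 20, lithium 6 and 8 of 18, and vehicle 7 and 7 of 20. Females had 9 rich and 7 poor and males 10 and 13, of 29 each. All 5 WT fluoxetine females were middle, and 3 of the 5 WT fluoxetine males were rich and none poor. Of the sum of squares of the score, 80.8% lay within the 12 groups, where the pooled SD was 2.23.

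The score did not pass a test in any of the 6 comparisons of labels (two-sided permutation within sex or, for the sexes, within genotype and treatment). HT averaged 5.97 ± 2.19 (SD, n = 10) and WT 7.15 ± 2.40 (SD, n = 10) under vehicle (permutation p = 0.26, adjusted over 6 comparisons 0.849). Under fluoxetine the difference of HT from WT was -1.25 (permutation p = 0.184), with 0.47 in females alone and -2.96 in males alone (exact permutation p = 0.0397), and under lithium -1.36 (permutation p = 0.261), both with an adjusted p of 0.587 over 9 comparisons. Over all treatments HT averaged 6.16 ± 2.26 (SD, n = 30) and WT 7.42 ± 2.04 (SD, n = 28), a difference of -1.26 with a permutation p of 0.036, or 0.323 adjusted over the same 9. Leaving out any 1 of 19 of the 58 libraries took that p above 0.05, up to 0.0645. Fluoxetine and lithium differed from vehicle by 0.44 and 0.40 in WT and by 0.37 and 0.22 in HT (permutation p between 0.646 and 0.849). In females alone the differences for fluoxetine in WT and lithium in HT turned to -1.40 and -0.52. Females differed from males by 0.35 (permutation p = 0.559). With both sexes included, each of these differences was smaller than the pooled SD within groups, 2.23. In males alone the difference of HT from WT under fluoxetine was larger than that SD.

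In comparisons of the label groups over all genes (limma on 12 group means, 46 residual degrees of freedom), no bulb, neuroblast or olfactory gene was called in any of 7. That is 0 of 71, near the share of all genes called, which was at most 0.994%. The comparisons share control samples. Fluoxetine against vehicle called 61 of 16606 genes (0.367%) in WT and 0 (0%) in HT, where 1526 passed at 0.05 before adjustment, DESeq2 called 19 and edgeR 0. Lithium against vehicle called 5 (0.0301%) in WT and 64 (0.385%) in HT. HT against WT called 3 (0.0181%) under vehicle, 165 (0.994%) under fluoxetine and 2 (0.012%) under lithium. Single libraries moved several of these counts. The 61 became 18 without WT fluoxetine female 5 and 347 without WT fluoxetine male 1, and the 165 became 26 without WT fluoxetine male 5 and 1109 without WT fluoxetine male 1. The 64 became 25 without HT lithium male 3, and the 5 became 0 without WT lithium female 1 and 44 without WT lithium female 4. The count of bulb list genes was 0 of 71 in each of the 7 comparisons with edgeR and DESeq2 as well. Between 1 and 3 of the 71 (1.4% to 4.2%) had an unadjusted p under 0.05 in a comparison, against 5.3% to 18.3% of all genes. Wide errors stood beside these differences: Dlx1 was at -0.51 ± 0.40 (SE) and Calb2 at -0.74 ± 0.59 (SE) in HT against WT under vehicle (limma adjusted p = 0.891 for both).

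Adding the score to that model as a covariate lowered the residual spread of the bulb genes. The score is itself a mean of bulb genes, so a lower spread of genes that vary with it follows from the choice of covariate. The median residual SD over the 71 bulb list genes was 0.488 log2 units without and 0.255 with the score, and over the projection neuron genes 1.41 and 0.478. Over all genes it was 0.159 and 0.146. The estimates for Dlx1 and Calb2 in HT against WT under vehicle became -0.04 ± 0.10 and -0.02 ± 0.10. Genes called went from 61 to 184 (1.11%) for fluoxetine in WT, from 0 to 5 (0.0301%) for fluoxetine in HT, from 5 to 26 (0.157%) for lithium in WT and from 64 to 164 (0.988%) for lithium in HT. For HT against WT the counts were 3 and 4 (0.0241%) under vehicle, 165 and 168 (1.01%) under fluoxetine, of which 124 were shared, and 2 and 4 (0.0241%) under lithium. With the covariate 1 of 71 bulb list genes (1.41%) was called in each of 2 comparisons, a share near that of all genes. Dlx6os1 fell by 0.36 ± 0.09 under fluoxetine in WT (limma adjusted p = 0.0434), and Stxbp6, a SNARE-binding protein, rose by 0.26 ± 0.06 in HT against WT under fluoxetine (adjusted p = 0.041). Both genes have their own difference between rich and poor libraries, 1.39 and 0.31.

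**Figure D5:**
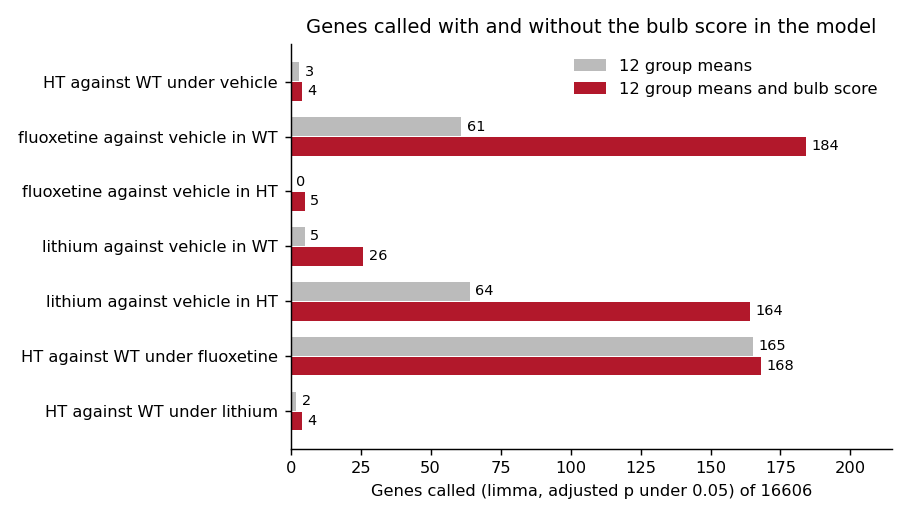
Number of genes called by limma at an adjusted p under 0.05, of 16606 (horizontal axis), in 7 label comparisons (rows), without the bulb score in the model (grey) and with it (red). The number stands beside each bar, and the largest increase is that of fluoxetine against vehicle in WT, from 61 to 184.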

How the data were processed

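Polyadenylated RNA was sequenced with a stranded mRNA kit, per the labels' protocols. The authors deposited 1 table of 18088 genes with a linear signal for each library, a read count over that library's size factor. The submitters' processing notes name GRCm38, DESeq2 1.19.11, R 3.6.0 and Salmon 0.11.2. Whole reads were recovered from the deposited signal for 100% of values at a tolerance of 0.0001. The median library held 26.73 M recovered reads (22.9 to 35.01 M), and size factors ran from 0.7872 to 1.2293. GENCODE M21 matched 18077 gene IDs.

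Groups came from sample titles. Genes with a mean of at least 10 were tested, 16606 in all and 16596 without the score genes. Models were fitted with limma 3.58.1 in R 4.3.3 on log2(value + 1), which understates changes of low genes, and p-values were adjusted by the Benjamini-Hochberg method at 0.05. The 12 group means used all 58 libraries and left 46 residual degrees of freedom, and label differences weigh both sexes equally. Scores were compared with two-sided permutation tests. These were exact, except for the sexes and for HT against WT over all treatments, where 100000 draws were used. Those comparisons had fewer draws when single libraries were left out. The quasi-likelihood test of edgeR 4.0.16 and DESeq2 1.42.0 were run on the recovered reads. Code was tested on simulated data. Python 3.11.15 was used for the rest.

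The score genes, limits, gene lists and comparisons were chosen with earlier results of these data known. The rule for named genes takes the list members, then, outside the lists, the 12 largest rises and falls without overlap where the mean was 50 or more, and the 8 genes of each sign with the smallest p in the middle libraries. Predicted genes and clones were passed over, and some genes that the rule takes are not reported here. Promoter windows came from RefSeq on GRCm38.p6.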

Additional observations from a re-analysis of the deposited data

How the results depend on the processing

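With limits of 8 and 5.5, 63 genes were at least 2-fold higher in the rich libraries without overlap, with limits of 9 and 4.5 it was 212, in males alone 190, in WT alone 179 and within the label groups 166, against 105. In females alone 2 genes were lower. With limits of 9 and 4.5 the rich libraries were shallower than the poor ones, by -0.564 M reads. When each library was left out in turn, the depth difference lay between 0.43 and 1.107 M reads. The list medians kept their sign in these repeats, except choroid plexus (-0.079 to 0.181), sensory axons (-0.028 to 0.156) and deep layers (-0.038 to 0.002). In the middle libraries, which do not cover all 12 groups, 4 genes fell without label terms. With the 12 group means as terms 15 genes rose, 3 of them bulb genes, and 0 fell. Left out in turn, single libraries gave 33 to 83 rising genes, 9 to 19 rising bulb genes and 0 to 5 falling genes.

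In females alone the score difference was -1.396 for fluoxetine in WT, -0.518 for lithium in HT and 0.465 for HT against WT under fluoxetine, where males alone gave -2.957 (two-sided exact permutation p = 0.0397). Over all treatments it was -0.934 in females and -1.59 in males, neither past 0.05 in a permutation test. Left out in turn, libraries gave -1.437 to -1.103 for HT against WT over all treatments, 0 to 0.915 for fluoxetine and -0.034 to 0.881 for lithium in WT, and -0.084 to 0.893 and -0.242 to 0.743 in HT. No bulb gene was called in the label comparisons in these repeats, except 1 for lithium in WT without WT lithium female 4 (0 to 1). With the score as covariate 1 bulb gene was called for fluoxetine in WT and 1 for HT against WT under fluoxetine. DESeq2 called 209 genes for fluoxetine in WT, 184 for lithium in HT, 37 for lithium in WT, 497 for HT against WT under fluoxetine, 9 under vehicle and 7 under lithium, 0 of them bulb genes. The cause of these shifts was not tested.

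Same-numbered libraries of different groups did not deviate together more than others (66 pairs, median correlation -0.026, 14 over 0.1). For different numbers the median correlation was 0.001 (264 pairs, 79 over 0.1). The labels do not say whether the numbers pair libraries, and such correlations cannot exclude it. With the replicate block, 0 bulb genes were called in each of the 7 comparisons, and 66 genes in all for fluoxetine in WT, 62 for lithium in HT and 157 for HT against WT under fluoxetine.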

Other observations

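The genes below lie outside the lists and the rule for named genes and were chosen after their values were seen. Chrnb4, Chrna3 and Chrna10, subunits of nicotinic acetylcholine receptors, were higher in the rich libraries without overlap, by 3.46, 1.90 and 4.31 on the log2 scale. Chrnb4 had a median of 56.2 (range 26.8 to 103) against 5.3 (range 0.0 to 12.7), and Chrna3 of 97.5 (range 51.0 to 199) against 25.7 (range 15.2 to 43.9). In the middle libraries Chrnb4 rose by 0.65 ± 0.12 per unit of score (limma adjusted p = 0.0129), while Chrna3 had a slope of 0.44 ± 0.10 that did not pass (adjusted p = 0.0773). Npr1, the receptor of atrial natriuretic peptide, had a median of 303 (range 159 to 538) against 67.3 (range 37.7 to 86.6) and rose in the middle libraries (adjusted p = 0.000563). Nppa, the precursor of that peptide, had a median of 76.3 (range 32.5 to 162) against 6.8 (range 0.0 to 13.7), and its slope in the middle libraries did not pass (adjusted p = 0.719).

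Several transcription factors outside the score were higher in the rich libraries without overlap. Tfap2c, an AP-2 factor, had a median of 63.3 (range 25.0 to 110) against 2.3 (range 0.0 to 11.4) and rose in the middle libraries by 1.18 ± 0.20 (limma adjusted p = 0.0063). Meis1, a homeobox factor related to Meis2, had a median of 348 (range 232 to 599) against 78.6 (range 50.6 to 115) and rose as well (adjusted p = 0.00456). Foxd3, a forkhead factor, had a median of 37.4 against 0.0 and at most 1.2 in any poor library, and its slope in the middle libraries did not pass (adjusted p = 0.574). Igf1, insulin-like growth factor 1, had a median of 738 (range 518 to 1178) against 369 (range 292 to 517).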
